A study of Mus musculus with 11 samples.

Results

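The 10 genes described here belong to the growth plate chondrocyte and were followed in RNA of the whole distal tibia. They were chosen by symbol from the merged count table and made up 10 of its 22600 genes. Of these, 3 encode SOX transcription factors (Sox5, Sox6 and Sox9). The other 7 encode proteins of the cartilage matrix (Acan, Comp, Matn1, Matn3, Hapln1, Col10a1 and Cnmd). The study asked how loss of marrow adipocytes acts on the bone around them, and the comparison here was between Control and BMAd-DTA mice. Each mouse gave 1 library, for 4 Control mice of genotype BMAd-WT and 7 mice with the toxin allele (BMAd-DTA). The labels gave all 11 mice the strain C57BL6/SJL, an age of 24 weeks and ad libitum feeding. In this model an FLP recombinase expressed from the Osterix promoter flips a Cre cassette in the Adipoq gene into its working orientation, so that Cre is made where both genes have been active. The Cre then opens a diphtheria toxin A allele at Rosa26, and cells that make the toxin die. Control mice carried the FLP and Cre alleles too, according to the study's methods, so the groups differed by the toxin allele. Each bone was cut at the junction of tibia and fibula and powdered whole, and no cell type was sorted.

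Chondrocytes of the growth plate pass through resting, proliferating and hypertrophic stages before bone replaces the cartilage. SOX9 starts the chondrocyte programme, and SOX5 and SOX6 act with it on enhancers of matrix genes. Aggrecan (Acan) is the large proteoglycan that gives cartilage its water content, the link protein Hapln1 fixes it to hyaluronan, cartilage oligomeric matrix protein (Comp) and the matrilins Matn1 and Matn3 bridge collagen fibrils, and chondromodulin (Cnmd) keeps vessels out. Type X collagen (Col10a1) is made by hypertrophic chondrocytes. SOX6 also has a role outside cartilage, in red cell precursors, and COMP is a protein of tendon as well as of cartilage.

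Upstream sequence is shown for 3 members whose levels are described together below. Acan and Col10a1 varied together between mice, and Sox6 varied with genes of red cell precursors. Each window holds the 250 bases before a RefSeq transcript start on GRCm38.p6, 5′ to 3′ on the strand of the gene. Capitals mark matches on either strand to the SOX motifs ACAAAG and ACAAT, the TATA motif TATAAA and the GATA motif AGATAA. The Acan window lies at chr7:79052976-79053225 on the plus strand, the Col10a1 window at chr10:34389731-34389980 on the plus strand and the Sox6 window at chr7:115846141-115846390 on the minus strand.
Acan: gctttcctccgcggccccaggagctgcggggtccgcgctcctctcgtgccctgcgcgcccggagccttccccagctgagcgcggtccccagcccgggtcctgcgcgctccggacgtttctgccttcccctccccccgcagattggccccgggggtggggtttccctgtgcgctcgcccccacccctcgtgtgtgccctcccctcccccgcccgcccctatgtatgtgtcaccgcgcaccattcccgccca
Col10a1: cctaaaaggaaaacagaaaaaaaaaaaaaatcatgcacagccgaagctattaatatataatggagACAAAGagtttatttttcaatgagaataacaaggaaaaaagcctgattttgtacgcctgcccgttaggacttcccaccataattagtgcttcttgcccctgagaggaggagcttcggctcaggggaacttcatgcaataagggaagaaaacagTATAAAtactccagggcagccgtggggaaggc
Sox6: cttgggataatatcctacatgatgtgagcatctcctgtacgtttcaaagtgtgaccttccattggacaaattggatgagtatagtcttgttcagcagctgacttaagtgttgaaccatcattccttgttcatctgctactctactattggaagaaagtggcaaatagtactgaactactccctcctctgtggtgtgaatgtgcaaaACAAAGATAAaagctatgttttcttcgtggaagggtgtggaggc
The Acan window was 74.4% G and C, more than in 95.4% of all windows, and held none of the 4 motifs. The Col10a1 window was 41.6% G and C and held 1 ACAAAG and 1 TATAAA. The Sox6 window was 1 of 6 for this gene, shown because it holds an AGATAA that overlaps an ACAAAG. It was the only window of the 6 with an AGATAA. Because it was picked for that motif, the single-window shares below understate how often 1 of 6 would hold it. Of 32851 mouse windows of this length, 16.5% held ACAAAG, 27.7% ACAAT, 12.4% TATAAA and 9.99% AGATAA. On GRCm38 in GENCODE M21, the Acan gene spans chr7:79053483-79115099, Col10a1 chr10:34389981-34397085 and Sox6 chr7:115470872-116038796. RefSeq windows were matched for 8 of the 10 members, with Sox9 and Comp unmatched.

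Totals were 16969529 to 18637663 counts per library, so that 3 counts corresponded to 0.156 to 0.177 CPM (counts scaled to the TMM-adjusted size of each library), the unit of most levels below. Libraries differed in their content of other tissue. The summed level of 20 skeletal muscle markers was 37.0 to 1718 CPM in Control and 36.5 to 1301 CPM in BMAd-DTA, with 3 markers at 0 in at least 1 library, and Atp2a1, Myh4 and Acta1 were the most abundant. All 19 tested muscle markers were lower in BMAd-DTA (median -0.89 on the log2 scale), none with an unadjusted p under 0.05. Control 4 and BMAd-DTA 2, 3 and 5 were poor in muscle RNA, with a mean log2 CPM of the markers of 0.25 to 0.58 against 3.18 to 5.60 in the other 7 libraries. Xist was at 13810 to 20260 counts in every library and the sum of 4 Y-linked genes at 0 to 1. This is the pattern of female mice, although the study's figure legends describe male mice. Adipocyte markers were lower in BMAd-DTA in 12 of 12 tested genes (median -1.10 on the log2 scale), with Car3, Fabp4 and Cfd the most abundant, and 1 of them, Retn, passed the test. Of 6 marrow stroma markers 2 were higher and 4 lower, and the most abundant, Cxcl12, Lepr and Ebf3, had adjusted p = 0.974, 0.182 and 0.909 by edgeR's quasi-likelihood test.

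By level, the genes spanned a wide range. In RPKM, which scales reads by exon length and library size, the mean over 11 libraries was 98.5 for Comp, 12.6 for Col10a1, 7.02 for Acan, 6.21 for Sox6 and 1.27 for Sox9. It was 0.816 for Hapln1, 0.406 for Sox5, 0.313 for Cnmd, 0.0777 for Matn1 and 0.0473 for Matn3. Comp exceeded Col10a1, Col10a1 exceeded Acan, Sox6 exceeded Sox9 and Hapln1 exceeded Sox5 in all 11 libraries. The order of neighbours was less regular for Acan over Sox6, which held in 8 libraries, for Sox5 over Cnmd and Matn1 over Matn3, which each held in 7, and for Cnmd over Matn1, which held in 9. Sox9 exceeded Hapln1 in 10.

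The defining genes of cartilage were uneven in level. Matn1 and Matn3, which mark cartilage itself, were near the counting floor. Matn1 had 0 to 7 counts per library and 30 in all, with 1 BMAd-DTA library at 0. Matn3 had 0 to 9 counts and 28 in all, with 1 Control and 4 BMAd-DTA libraries at 0. Each count of 0 allows up to 0.177 CPM. Cnmd had 1 to 23 counts. The 7 other cartilage collagens fell into a low and a high set, with means over 11 libraries of 1.18 CPM for Col9a1, 1.92 for Col9a3 and 2.45 for Col9a2 against 39.2 for Col27a1, 311 for Col11a2, 321 for Col11a1 and 377 for Col2a1. The cartilage matrix genes Chad and Prg4 were at 325 and 2875 CPM.

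**Figure D1:**
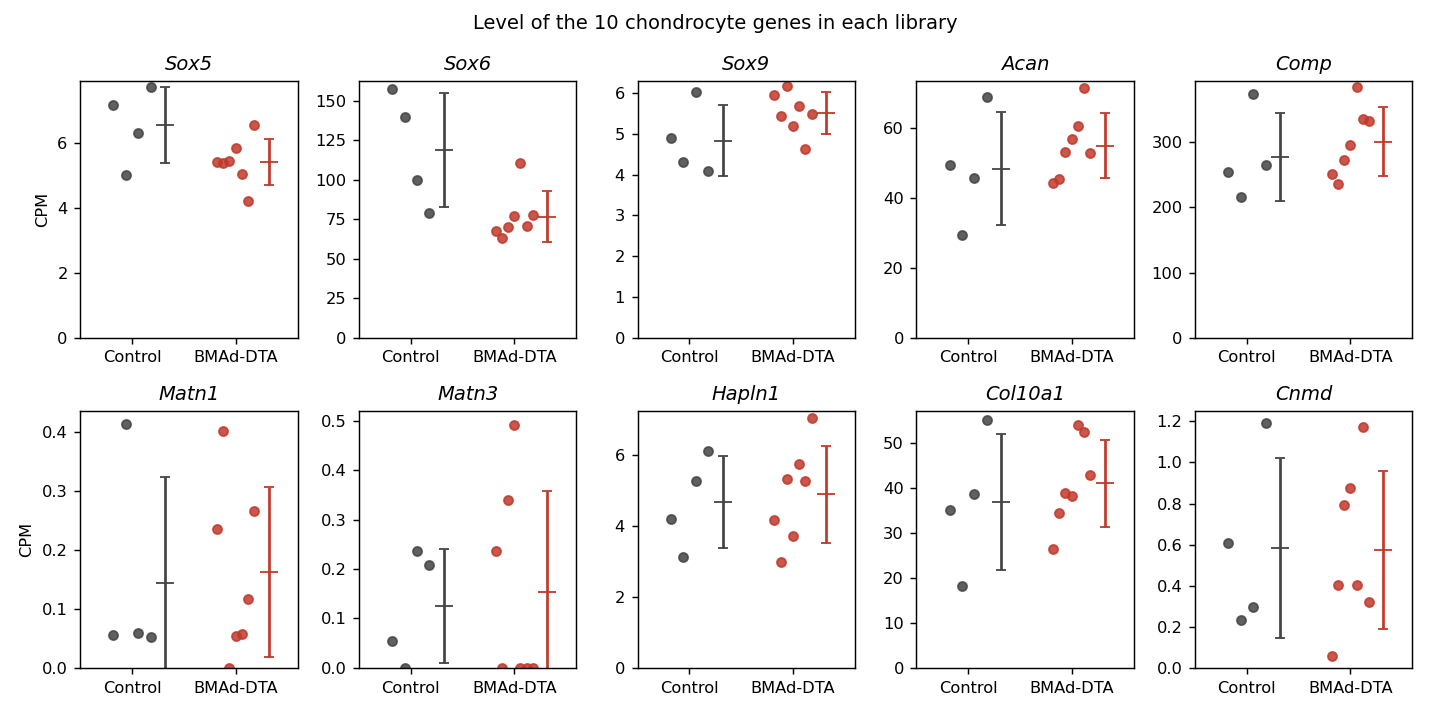
Level of the 10 genes in each library, in CPM on a linear axis from 0 that differs between panels, with 1 point per mouse (4 Control in grey, 7 BMAd-DTA in red) and the mean ± SD beside the points. In the Sox6 panel 6 of 7 BMAd-DTA mice lie below all Control mice, and in every panel the groups overlap.

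Sox6 had the log2 fold change of largest size among the 8 tested members. In Control mice 1 to 4 it was at 158, 140, 99.9 and 79.0 CPM, and in BMAd-DTA mice 1 to 7 at 67.3, 63.0, 70.4, 76.9, 111, 70.7 and 78.0 CPM. Of the 7 values with the toxin allele, 6 were lower than any Control value, and BMAd-DTA 5 was inside the Control range. The group means were 119 ± 36.1 CPM (SD, n = 4) and 76.7 ± 15.9 CPM (SD, n = 7). The log2 fold change, BMAd-DTA over Control, was -0.63 ± 0.18 (SE, 95% interval -1.03 to -0.24). It did not pass edgeR's quasi-likelihood test over all genes (Benjamini-Hochberg adjusted p = 0.113). DESeq2 gave -0.64 and adjusted p = 0.0175. A two-sided exact permutation test of Sox6 alone gave p = 0.0152, unadjusted, where the smallest possible value is 0.00303.

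Sox6 followed the genes of red cell precursors from mouse to mouse. The erythroid score, the mean log2 CPM of 10 marker genes, correlated with Sox6 with Pearson's r = 0.975 after subtraction of the group means (n = 11 libraries, permutation p = 8e-05, Benjamini-Hochberg adjusted p = 0.00288 over 36 relations of members and Col2a1 with marker scores). Spearman's rho was 0.955 (permutation, adjusted p = 0.00432). Without the 2 libraries farthest from the median of the score, and with the group means of all 11 still removed, r was 0.964. Among the 7 BMAd-DTA libraries alone it was 0.982. It was the only one of the 36 relations to pass the adjustment. The 10 erythroid genes were all lower in BMAd-DTA, around a median of -0.49 on the log2 scale. By edgeR none was called, and 9 had an unadjusted p under 0.05, against 16.4% of all genes. Their summed level was 4007 to 8051 CPM in Control and 4094 to 6374 CPM in BMAd-DTA. None was at 0 in any library. The most abundant were the anion exchanger Slc4a1 and the haem synthesis enzyme Alas2.

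With the erythroid score as a covariate the log2 fold change of Sox6 was -0.077 ± 0.076 (SE, edgeR adjusted p = 0.869), against -0.63 without it. With the muscle score as the covariate it was -0.60 (edgeR adjusted p = 0.211). Without the 4 muscle-poor libraries it was -0.86 and passed the test (edgeR adjusted p = 0.0427). Among the other 7 libraries, Control lay at 99.9 to 158 CPM and BMAd-DTA at 67.3 to 78.0 CPM, while among the muscle-poor ones Control 4, at 79.0 CPM, lay inside the BMAd-DTA range of 63.0 to 111 CPM. The 4 muscle-poor libraries included the Control mouse with the lowest erythroid score (7.88). They also included the BMAd-DTA mice with the highest (8.42) and the lowest (7.80). In whole bone, fewer cells of a type and less RNA per cell cannot be told apart.

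The erythroid blood group gene Ermap, itself 1 of the 10 erythroid markers, was the gene whose pattern was most like that of Sox6 among 16488 genes (r = 0.992, group means removed, chosen after the values were seen). The log2 ratio of Sox6 to Ermap was -1.73 ± 0.045 in Control (SD, n = 4) and -1.73 ± 0.046 in BMAd-DTA (SD, n = 7), a difference of -0.0034 (exact permutation p = 0.909). Ermap was picked as the closest gene in these same libraries, so the small SDs of this ratio follow from that choice. No conclusion is drawn from the ratio to Ermap. Sox6 over Acan was 1.31 in Control and 0.48 in BMAd-DTA, a difference of -0.83 (exact permutation p = 0.0303, adjusted p = 0.0505 over 5 ratios). All log2 ratios were of CPM, not scaled by exon length, so their sign can differ from the order in RPKM. After Ermap the next genes were March8 (r = 0.986) and Btnl10 (r = 0.985), and the erythroid membrane gene Ank1 stood at rank 7 (r = 0.974).

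**Figure D2:**
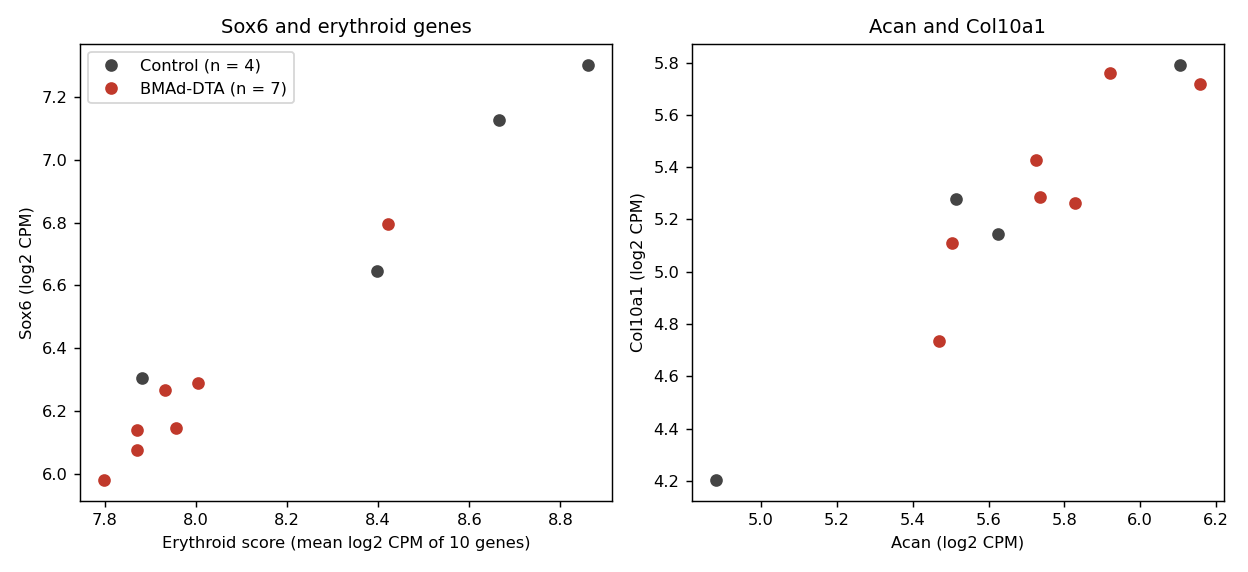
Each point is 1 library. On the left, log2 CPM of Sox6 is plotted against the erythroid score (mean log2 CPM of 10 erythroid genes), and on the right log2 CPM of Col10a1 against that of Acan. Control and BMAd-DTA libraries fall along the same band in both plots, with r = 0.975 on the left and 0.945 on the right once group means are removed.

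Sox5 and Sox9 were at much lower levels. Sox5 was at 7.16, 5.01, 6.32 and 7.73 CPM in Control 1 to 4 and at 5.42, 5.39, 5.45, 5.85, 5.05, 4.23 and 6.55 CPM in BMAd-DTA 1 to 7. All 7 BMAd-DTA values lay below the Control median, and the ranges overlapped. Means were 6.55 ± 1.18 CPM (SD, n = 4) and 5.42 ± 0.711 CPM (SD, n = 7), and the log2 fold change was -0.27 ± 0.15 (SE, 95% interval -0.60 to 0.054, edgeR adjusted p = 0.394). Sox9, the gene at the head of the programme, was at 4.90, 4.30, 6.03 and 4.10 CPM in Control and at 5.95, 5.44, 6.18, 5.19, 5.68, 4.64 and 5.49 CPM in BMAd-DTA. All 7 BMAd-DTA values lay above the Control median. Means were 4.83 ± 0.868 CPM (SD, n = 4) and 5.51 ± 0.508 CPM (SD, n = 7), and the log2 fold change was 0.19 ± 0.14 (SE, 95% interval -0.12 to 0.50, edgeR adjusted p = 0.557). The log2 ratio of Sox9 to Sox5 was -0.43 ± 0.37 in Control (SD, n = 4) and 0.029 ± 0.17 in BMAd-DTA (SD, n = 7), and 5 of 7 BMAd-DTA mice lay above every Control mouse (exact permutation p = 0.0152, adjusted p = 0.0505 over 5 ratios, chosen after the values were seen).

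Among the matrix genes, Acan was at 49.3, 29.4, 45.6 and 68.8 CPM in Control 1 to 4 and at 44.2, 45.3, 53.2, 56.7, 60.5, 71.2 and 52.8 CPM in BMAd-DTA 1 to 7. The lowest library was Control 2, the highest BMAd-DTA 6, and the groups overlapped. Means were 48.2 ± 16.2 CPM (SD, n = 4) and 54.8 ± 9.27 CPM (SD, n = 7), with a log2 fold change of 0.18 ± 0.19 (SE, 95% interval -0.22 to 0.59, edgeR adjusted p = 0.686). Col10a1, the hypertrophic collagen, was at 35.2, 18.3, 38.7 and 55.3 CPM in Control and at 26.5, 34.4, 38.9, 38.2, 54.0, 52.5 and 42.9 CPM in BMAd-DTA. Its lowest and highest libraries were both Control. Means were 36.9 ± 15.2 CPM (SD, n = 4) and 41.1 ± 9.76 CPM (SD, n = 7), and the log2 fold change was 0.15 ± 0.25 (SE, 95% interval -0.38 to 0.69, edgeR adjusted p = 0.813).

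Comp, the most abundant member, was at 254, 216, 374 and 265 CPM in Control and at 251, 236, 272, 296, 385, 335 and 332 CPM in BMAd-DTA. The groups overlapped, with means of 277 ± 67.5 CPM (SD, n = 4) and 301 ± 52.9 CPM (SD, n = 7), and the log2 fold change was 0.12 ± 0.15 (SE, 95% interval -0.22 to 0.45, edgeR adjusted p = 0.764). Hapln1 was at 3.12 to 6.12 CPM in Control and 2.98 to 7.03 CPM in BMAd-DTA, with a log2 fold change of 0.067 ± 0.24 (SE, 95% interval -0.46 to 0.59, edgeR adjusted p = 0.926). For Cnmd, at 0.24 to 1.19 CPM in Control and 0.06 to 1.17 CPM in BMAd-DTA, the interval was wide, -1.32 to 1.24 about a log2 fold change of -0.037 (edgeR adjusted p = 0.984). The spread between mice was smaller in BMAd-DTA for the more abundant members, with a coefficient of variation of 16.9% for Acan and 23.8% for Col10a1 against 33.5% and 41.1% in Control, a difference that was not tested. A difference in Matn1 or Matn3 was not detectable at this depth. Their means were 0.145 ± 0.178 and 0.125 ± 0.115 CPM in Control (SD, n = 4) and 0.162 ± 0.144 and 0.153 ± 0.204 CPM in BMAd-DTA (SD, n = 7).

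Counting all members, 8 of 10 passed the filter on low counts and none of the 8 was called by edgeR's quasi-likelihood test at an adjusted p under 0.05, where 0.0788% of all 16496 genes were called. At an unadjusted p under 0.05 there was 1, Sox6, against 16.4% of all genes. DESeq2 called Sox6 alone, against 5.42% of all genes. In no member were the groups without overlap, against 2.81% of all genes. On the log2 scale the median change of the 3 SOX genes was -0.27 (2 lower, 1 higher) and that of the 5 tested matrix genes 0.12 (4 higher, 1 lower). The median over all genes was 0.0018, and 49.6% of them were lower. With the erythroid score as covariate the SOX median was -0.077, now the value of Sox6, and the matrix median 0.042. Sox5 was then at -0.38, against -0.27 without the covariate, and Sox9 at 0.24, against 0.19.

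The co-variation of the members from mouse to mouse was examined with Acan as the reference. Acan and Col10a1 had r = 0.945 with group means removed (n = 11 libraries, permutation, adjusted p = 0.00684 over 9 relations with Acan), and rho = 0.873 (permutation, adjusted p = 0.0206). Without the 2 libraries farthest from the median of Acan, Control 2 and BMAd-DTA 6, r was 0.902, and within BMAd-DTA alone it was 0.881. For values without those libraries, the group means removed were still those of all 11 libraries. Cnmd had r = 0.754 with Acan (permutation, adjusted p = 0.0224), with rho = 0.818 (permutation, adjusted p = 0.0206), and 0.723 without those libraries. Hapln1 (0.653) and Comp (0.519) did not pass (permutation, adjusted p = 0.0951 and 0.2998). Matn1 ran the other way (r = -0.66, permutation, adjusted p = 0.0951) and Matn3 had r = 0.16, both on counts near the floor. The SOX genes gave 0.35 for Sox5, -0.26 for Sox6 and -0.28 for Sox9. Over the 10 pairs of tested matrix genes r was 0.17 to 0.94 with a median of 0.67, over the 15 pairs of a SOX and a matrix gene -0.49 to 0.39 with a median of 0.050, and over the 3 SOX pairs -0.25 to 0.19. The difference between these sets of pairs was not tested. The log2 ratio of Col10a1 to Acan, in CPM without scaling by exon length, was -0.43 ± 0.20 in Control (SD, n = 4) and -0.44 ± 0.18 in BMAd-DTA (SD, n = 7).

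**Figure D3:**
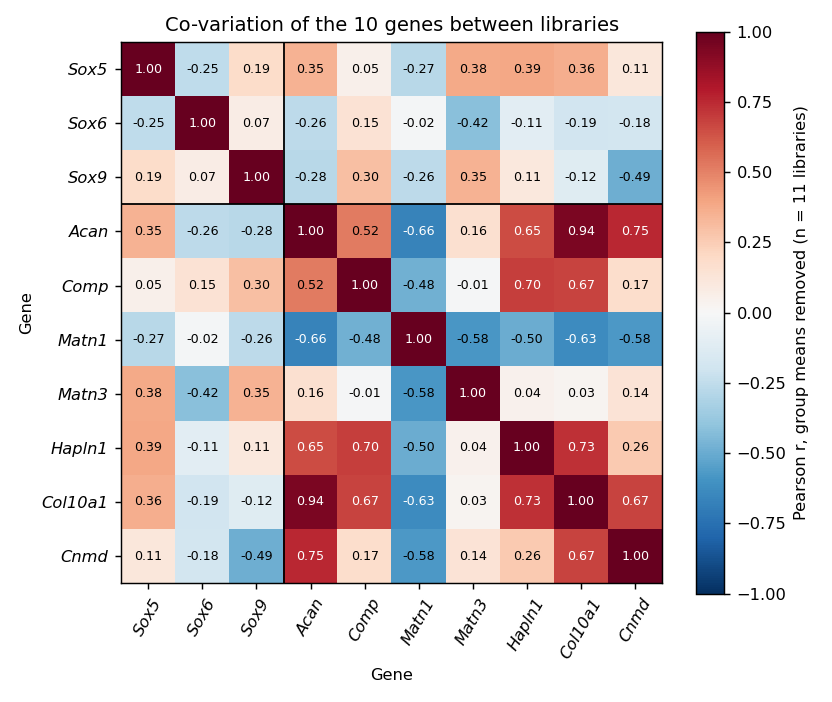
Pearson's r between every pair of the 10 genes, on log2 CPM with group means removed (n = 11 libraries), from -1 in blue to 1 in red, with lines between the 3 SOX genes and the 7 matrix genes. Acan, Comp, Hapln1 and Col10a1 have r of 0.52 to 0.94 with one another, Cnmd has 0.75 with Acan and 0.67 with Col10a1 but 0.17 with Comp and 0.26 with Hapln1, and Matn1 is negative with all 5 of these genes.

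The genes most like the mean of the 7 matrix genes, each scaled to the same variance, over 11 libraries with group means removed, were Gnmt (r = 0.930), A230072C01Rik (0.929), Casp8 (0.8997), Folr2 (0.879), Rab10os (0.856), Mrpl24 (0.856), Depdc5 (0.852), Gm21887 (0.847), Atp5o (0.846) and Btbd8 (0.844), none of them on the cartilage lists. With 16488 genes ranked over 11 libraries these values are a description. The first cartilage genes were the cytokine-like Cytl1, at rank 12 (r = 0.834), and the chondrocyte membrane proteoglycan Snorc, at rank 15 (r = 0.823). Col2a1 stood at rank 11883 (r = -0.17). The mean includes Matn1 and Matn3, which were near the counting floor. With the 5 tested matrix genes alone, a choice made after seeing the data, 5 of the first 10 genes were shared, Gnmt (r = 0.917) again came first, Cytl1 stood at rank 6 (r = 0.856), Snorc at rank 25 and Col2a1 at rank 13280 (r = -0.26).

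Of 37 other chondrocyte genes listed, 34 were tested, and in BMAd-DTA 31 were higher and 3 lower, around a median of 0.42 on the log2 scale. Of all genes tested 49.6% were lower. None was called by edgeR. At an unadjusted p under 0.05 there were 14, all higher, against 16.4% of all genes. DESeq2 called 5 (Col2a1, Pth1r, Fgfr3, Col27a1 and Panx3), against 5.42% of all genes. The lists were chosen with earlier results of these data known. In 4 of the 34, Col2a1, Col11a1, Fgfr3 and Panx3, the groups did not overlap, against 2.81% of all genes.

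By list, the collagens and the hypertrophic zone had the highest medians. An unadjusted p under 0.05 was found for 5 of 7 collagens and 4 of 5 hypertrophic zone genes, against 16.4% of all genes. All 7 cartilage collagens were higher (median 0.95), from Col9a3 at 0.42 to Col11a1 at 1.34 (edgeR adjusted p = 0.158), and their summed level was 210 to 740 CPM in Control and 1117 to 1724 CPM in BMAd-DTA. The low end in Control was Control 1, the library with the lowest mean log2 CPM of osteoblast and osteocyte markers (6.24). Col2a1, the main fibrillar collagen of cartilage and a gene the study discusses, was at 105, 271, 256 and 235 CPM in Control and at 580, 535, 406, 393, 427, 500 and 435 CPM in BMAd-DTA, and all 7 lay above every Control mouse. Its log2 fold change was 1.11 ± 0.22 (SE, edgeR adjusted p = 0.0675, DESeq2 adjusted p = 1.82e-05). All 5 hypertrophic zone genes were higher (median 0.92), from the transcription factor Mef2c at 0.36 to the channel Panx3 at 1.77 (edgeR adjusted p = 0.113). All 5 (Mmp13, Panx3, Ibsp, Spp1 and Mef2c) are also expressed by osteoblasts or osteocytes. The hypertrophic collagen Col10a1, a member and so not on this list, was at 0.15 (edgeR adjusted p = 0.813).

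The medians of the remaining lists were lower. Of 11 other matrix genes 10 were higher, with a median of 0.20 and a range from Scrg1 at -0.050 to Ucma at 0.63, and none had an unadjusted p under 0.05. Of 11 tested signalling genes 9 were higher, with a median of 0.26, from the joint morphogen Gdf5 at -0.38 to the parathyroid hormone receptor Pth1r at 0.87 (edgeR adjusted p = 0.0774). At an unadjusted p under 0.05 there were 5 signalling genes, all higher, against 16.4% of all genes, and Fgfr3 was among them.

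Genes of bone-forming cells were measured beside these lists. The 10 osteoblast and osteocyte markers were all higher in BMAd-DTA (median 1.14), with 1 called, Alpl, and none at 0 in any library. Their summed level was 2748 to 12261 CPM in Control and 14162 to 34876 CPM in BMAd-DTA, with Col1a1, Col1a2 and Alpl the most abundant. Several of the listed genes, such as Pth1r, Panx3, Mmp13, Ibsp, Spp1, Runx2 and Mef2c, are also expressed by osteoblasts or osteocytes. The part of the osteoblast genes in these differences, including those of the cartilage collagens, was not tested. Col2a1 and the osteoblast score had r = 0.883 over all libraries, which includes the difference between the groups. With group means removed r was 0.622 (permutation, adjusted p = 0.890) and rho 0.40. Among the 7 BMAd-DTA libraries alone r was -0.12. Control 1 was the lowest library in both, at 105 CPM and a score of 6.24. The other Control libraries were at 235 to 271 CPM, with scores of 7.10 to 7.42. Of the 6 tendon markers 5 were higher (median 0.36), with Fmod, Thbs4 and Tnmd the most abundant, a summed level of 120 to 164 CPM in Control and 123 to 261 CPM in BMAd-DTA, and 1 at 0 in a library. Hapln1 had r = 0.770 with the tendon score and Comp 0.491 (permutation, adjusted p = 0.111 and 0.890).

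Col2a1 was also set against Acan within each library. The log2 ratio of Col2a1 to Acan was 2.14 ± 0.91 in Control (SD, n = 4) and 3.09 ± 0.38 in BMAd-DTA (SD, n = 7), a difference of 0.96, and 2 of 7 BMAd-DTA mice lay above every Control mouse (exact permutation p = 0.0303, adjusted p = 0.0505 over 5 ratios chosen after the values were seen).

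**Figure D4:**
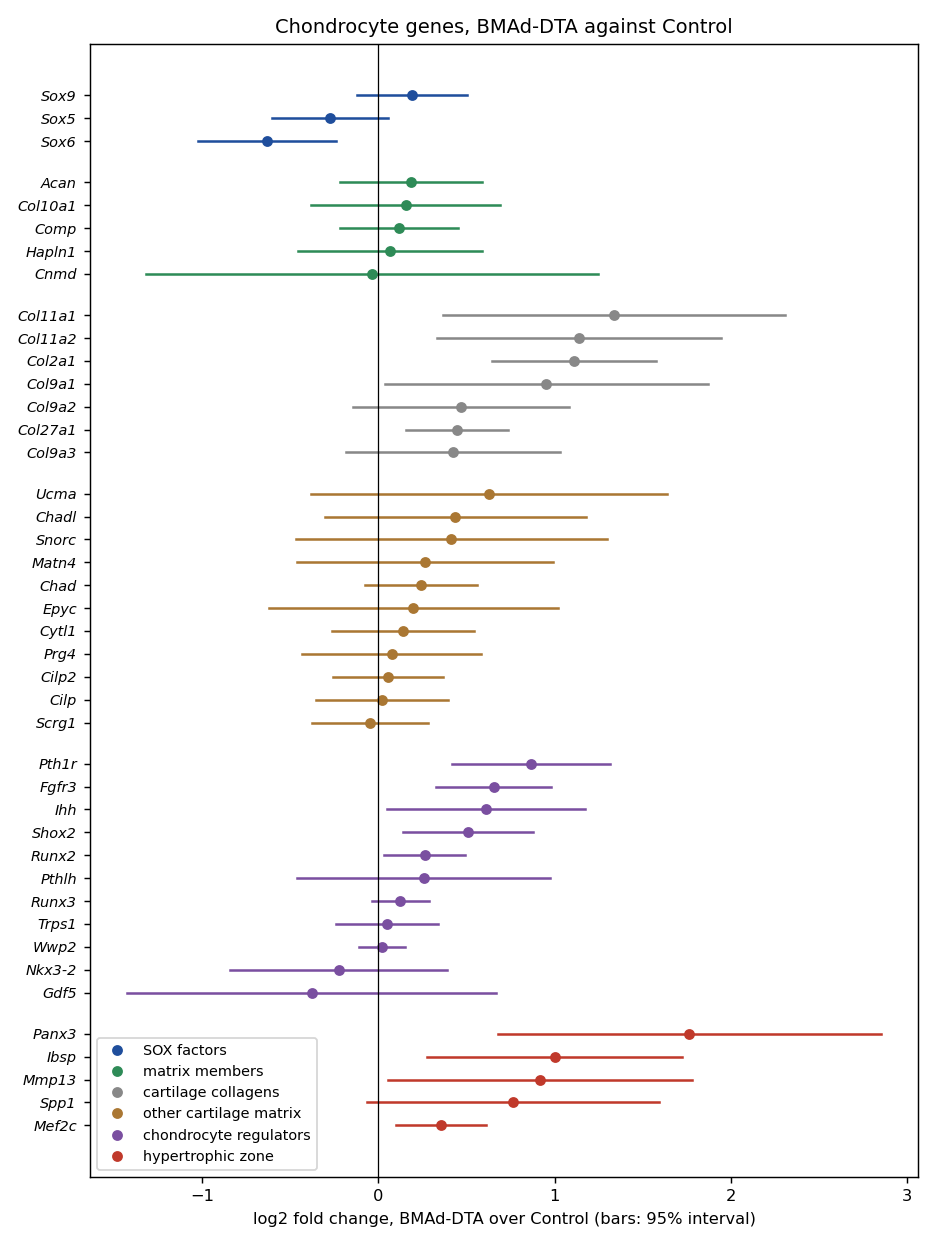
Log2 fold change, BMAd-DTA over Control, with its 95% interval for the 8 tested members and the 34 other tested chondrocyte genes, by list. The 5 matrix members lie between -0.037 and 0.18, Sox6 at -0.63 is the lowest gene drawn, and the 7 cartilage collagens lie from 0.42 to 1.34.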

How the data were processed

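RNA of 11 distal tibiae was sequenced strand-specifically with paired ends. Per the submitters' processing notes and the study's methods, the authors used FastQC 0.11.9, STAR on mm10, QualiMap and DESeq2, and deposited read counts per gene without normalization, both per library and merged. The merged table was used. It equals the counts of 1 strand. The annotation release is not given in the sources used here.

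The 10 members and all gene lists were chosen with earlier results of these data known. The groups were compared by the quasi-likelihood F test of edgeR 4.0.16 in R 4.3.3 after filterByExpr and TMM, two-sided, with Benjamini-Hochberg adjustment over 16496 genes and a threshold of 0.05. Standard errors were derived as the fold change over the root of F, on the log2 scale. Single values were tested by exact permutation over 330 assignments of mice, and correlations by 100000 permutations within groups of log2 CPM (prior count 2). Exon lengths and positions came from GENCODE M21 on GRCm38, which matched 99.9% of identifiers. Named genes were the members, the extremes of log2 fold change in each cartilage list, the 10 genes most like the matrix mean and the 3 most abundant markers of each cell type, 1 of which is not reported here. Others, such as Col2a1, were chosen after their values were seen. Alternatives were DESeq2 1.42.0, limma-voom 3.58.1, other scalings, filters and count tables, 2 covariates, and each mouse left out. The steps were tested on simulated data. Nothing in the labels ties mice to litters or batches, and no 2 libraries of the same group were alike within sampling noise.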

Additional observations from a re-analysis of the deposited data

Results flagged for a closer look

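Sox6 in BMAd-DTA 5, at 111 CPM, stood apart from the other BMAd-DTA mice, the next of which was at 78.0 CPM. The gap was 0.686 of the range of the group, the 1 such case among 16 groups of libraries examined, and chance gives about 1 in 20. The erythroid score of this library was 8.42, and the other BMAd-DTA libraries were at 7.80 to 8.01. Without this mouse the log2 fold change of Sox6 was -0.75 (edgeR adjusted p = 0.0589). Whether the erythroid content accounts for the gap was not tested.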

How the results depend on the processing

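Of 183 member values under the alternatives, 171 kept their direction and their side of the threshold, 10 changed sign and 2 passed the threshold, both for Sox6. DESeq2 called 845 genes over all, with 1 member and 5 other cartilage genes, against 13, 0 and 0 by edgeR. Over all genes, limma-voom called 20, RLE scaling 20, the muscle covariate 3 and the erythroid covariate 0. The median of the SOX genes was -0.077 with the erythroid covariate, where the middle gene was Sox6 in place of Sox5. Without the 4 muscle-poor libraries, an alternative added after seeing the data, 103 genes were called, 1 of them a member (Sox6). With each mouse left out in turn, edgeR called 0 to 292 genes over all, 0 to 0 members and 0 to 3 other cartilage genes. There were 0 calls without Control 1, Control 2, BMAd-DTA 1 or BMAd-DTA 6, 292 without Control 3, 89 without Control 4, 8 without BMAd-DTA 3 and 3 without BMAd-DTA 4. The 3 cartilage genes were called without Control 3. Sox6 stayed at -0.79 to -0.47, with adjusted p = 0.0549 at its lowest in edgeR. Values near 0 changed sign. Hapln1 was -0.014 with the erythroid covariate, -0.084 without Control 2 and -0.043 without BMAd-DTA 7. Col10a1 was -0.070 without Control 2. Cnmd was 0.58 without Control 4, 0.16 without BMAd-DTA 1, 0.033 without BMAd-DTA 2, 0.033 without BMAd-DTA 5, 0.067 without BMAd-DTA 7 and 0.66 without the muscle-poor libraries. Over mice left out in turn the highest value of Hapln1 was 0.22 and of Col10a1 0.42, and the lowest of Cnmd was -0.30. The matrix median was -0.070 to 0.40. The cause of these moves was not tested. No paired analysis was possible because the replicate numbers only name the libraries. Depth limits Matn1, Matn3 and Cnmd, and p-values weigh a difference or a correlation against the variation between these mice.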
